A study of Homo sapiens with 6 samples.

Results

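The RAB genes encode small GTPases that direct membrane traffic, and their transcripts were followed in cells labelled MDA-MB-231 with and without CTI-2. Members were the rows of the gene count table whose symbol is RAB, then a number and at most 1 letter from A to D, which gave 57 of 16362 genes. Each was assigned to a trafficking role by its known site of action, and the symbol rule used no measured value. MDA-MB-231 is a human breast cancer line, established in culture, that lacks oestrogen receptor and is commonly described as mesenchymal. Control cells (3 libraries) received no agent per the labels and no vehicle is named in them. Treated cells (3 libraries) had CTI-2 for 24 h at a dose that the labels do not state, and the compound is known here by its code name alone. RNA was read as cDNA on the Oxford Nanopore platform, in which a read stands for 1 amplified cDNA molecule. The comparison asks which RAB transcripts differed after CTI-2.

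Library totals ran from 2208261 to 3929532 counts, so that 3 counts in a library, the limit that a count of 0 allows, amount to 0.763 to 1.36 CPM (counts scaled to a library total of 1000000). Nothing in the labels ties the libraries to separate cultures, and the p-values therefore measure the spread between these libraries, which may be technical. The number of calls depended most on control 2: without it 1610 genes passed the test in place of 791, against 400 to 552 without any other library. Between libraries of a group, chi-square per degree of freedom was 3.94 (controls 1 and 2), 3.92 (1 and 3) and 6.76 (2 and 3). For pairs of CTI-2 libraries it was 1.77 to 2.43. Markers fitted the labelled line in part. CD44 (131.3 to 188.4 CPM) and S100A4 (2251 to 2802 CPM) were high and ESR1 (at most 0.509 CPM) and CDH1 (at most 0.337 CPM) were near 0, whereas VIM, which encodes the mesenchymal filament vimentin, was at 14.5 to 18.9 CPM. CDKN2A, commonly described as deleted in MDA-MB-231, was at 254.5 to 612.1 CPM, which goes against the label. Of the other markers listed as present in the line, PLAUR, ANXA1, MSN and CAV1 were at 57.0 CPM or more, and AXL was at 2.979 to 7.415 CPM. Of the others listed as low or absent, COL1A2 was near 0 (at most 0.763 CPM). COL1A1 (52.2 to 87.4 CPM), MTAP (10.8 to 19.0 CPM), EPCAM (6.98 to 10.6 CPM) and ERBB2 (4.98 to 11.1 CPM) were counted in every library. In bulk RNA, fewer cells of a type and less RNA per cell cannot be told apart.

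A RAB protein is a switch. In its GTP-bound form it sits on a membrane and binds effectors, proteins that tether vesicles, recruit motors or modify lipids there, and in its GDP-bound form it is released into the cytosol. Guanine nucleotide exchange factors (GEFs) turn it on, GTPase-activating proteins (GAPs) turn it off, and GDP dissociation inhibitor (GDI) keeps the inactive form soluble. Attachment to the membrane needs geranylgeranyl lipids on cysteines near the end of the protein, added by RAB geranylgeranyl transferase with the help of an escort protein. Each organelle carries its own RABs: RAB1 and RAB2 act between endoplasmic reticulum (ER) and Golgi, RAB5 on early endosomes, RAB11 in recycling, RAB7 on late endosomes and lysosomes, and RAB3, RAB26 and RAB27 in regulated secretion.

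Coding ends of some members on which the results turn are shown. They hold the codons for the cysteines to which the lipids are attached, and they separate close relatives. Each run is the last 30 coding bases before the stop codon, 5′ to 3′ on the coding strand, with cysteine codons among the last 5 codons in capitals, from GENCODE 29 transcripts on GRCh38. Of the called members, RAB26 (chr16:2153389-2153418, plus strand), RAB30 (chr11:82982168-82982197, minus strand) and RAB5A (chr3:19983791-19983820, plus strand) are shown, and RAB2A is not. RAB5B (chr12:55992180-55992209, plus strand) is a relative of RAB5A. RAB13 (chr1:153982102-153982131, minus strand) had the most counts, and RAB1A (chr2:65088496-65088525, minus strand) and RAB1B (chr11:66276206-66276235, plus strand) are a pair of paralogs of which RAB1B was barely counted. RAB9A (chrX:13709320-13709349, plus strand) and RAB7A (chr3:128813390-128813419, plus strand) are late endosome members.
RAB26: gagggtcgaggggcctccTGCTGCcgccct
RAB30: atcagctatttgactTGTTGTaatttcaac
RAB5A: caaccaaccaggaatcagTGTTGTagtaac
RAB5B: cagcagaacaagagccagTGTTGTagcaac
RAB13: aagaagaacaccaacaagTGCtccctgggc
RAB1A: ccagtcaagcagtcaggtggaggtTGCTGC
RAB1B: cctgtaaagccggctggcggtggcTGTTGC
RAB9A: cgaaagcccaagcctagctcatctTGCTGT
RAB7A: gccaaggcctcggcagaaagcTGCagtTGC

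All 57 members had a complete coding sequence in the annotation, and the place of these codons sorted them into few arrangements. The last and the third codon from the end were cysteine codons in 16 members, RAB7A and the RAB3 and RAB27 genes among them, and filled both of the last 2 positions in 14, RAB1A, RAB1B, RAB2A and RAB9A among them. In 10 members, RAB13 and the RAB8 genes included, the fourth codon from the end was the only cysteine codon of the last 5. The fourth and the third from the end were cysteine codons in 6 members (RAB5A, RAB5B, RAB5C, RAB17, RAB24 and RAB26), and the fifth and the fourth in 5 (RAB11A, RAB11B, RAB21, RAB25 and RAB30). RAB6C and RAB37 had none in the last 5 codons of the transcript used. The 4 members that passed the test thus carried 3 of these arrangements.

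After 24 h of CTI-2, RAB26, a RAB of secretory granules, was 2.11-fold lower and RAB2A, which acts between ER and Golgi, was 1.93-fold lower, while RAB30, a Golgi RAB, was 1.68-fold higher and RAB5A, the early endosome RAB, was 1.35-fold higher. These were the 4 of 36 tested members (11.1%) with an adjusted p under 0.05 by the quasi-likelihood test of edgeR, against 8.03% of all 9848 tested genes. They split into 2 higher and 2 lower genes, where 3.39% of all tested genes were higher and 4.64% lower. The other 21 members had too few counts to be tested. Among the 36, the log2 fold change (CTI-2 minus control) was positive for 19 and negative for 17, with a median of 0.0043 beside -0.011 for all tested genes, and 28 members lay within 0.3 of zero. Values of the groups did not overlap for 6 members (16.7%), against 28.8% of all tested genes: RAB30, RAB10 and RAB7A lay above every control (13.2% of all genes did), and RAB26, RAB2A and RAB32 below every control (15.6% of all genes). An unadjusted p under 0.05 was reached by 5 members, the 4 called and RAB9A, and by 23.9% of all tested genes. Both shares differ from the background by few genes, and no test was made of the family as a whole. The share of counts in RAB rows was 0.241, 0.223 and 0.216% for the controls, in order of replicate number, and 0.228, 0.222 and 0.228% for the CTI-2 libraries, ranges that overlap.

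**Figure D1:**
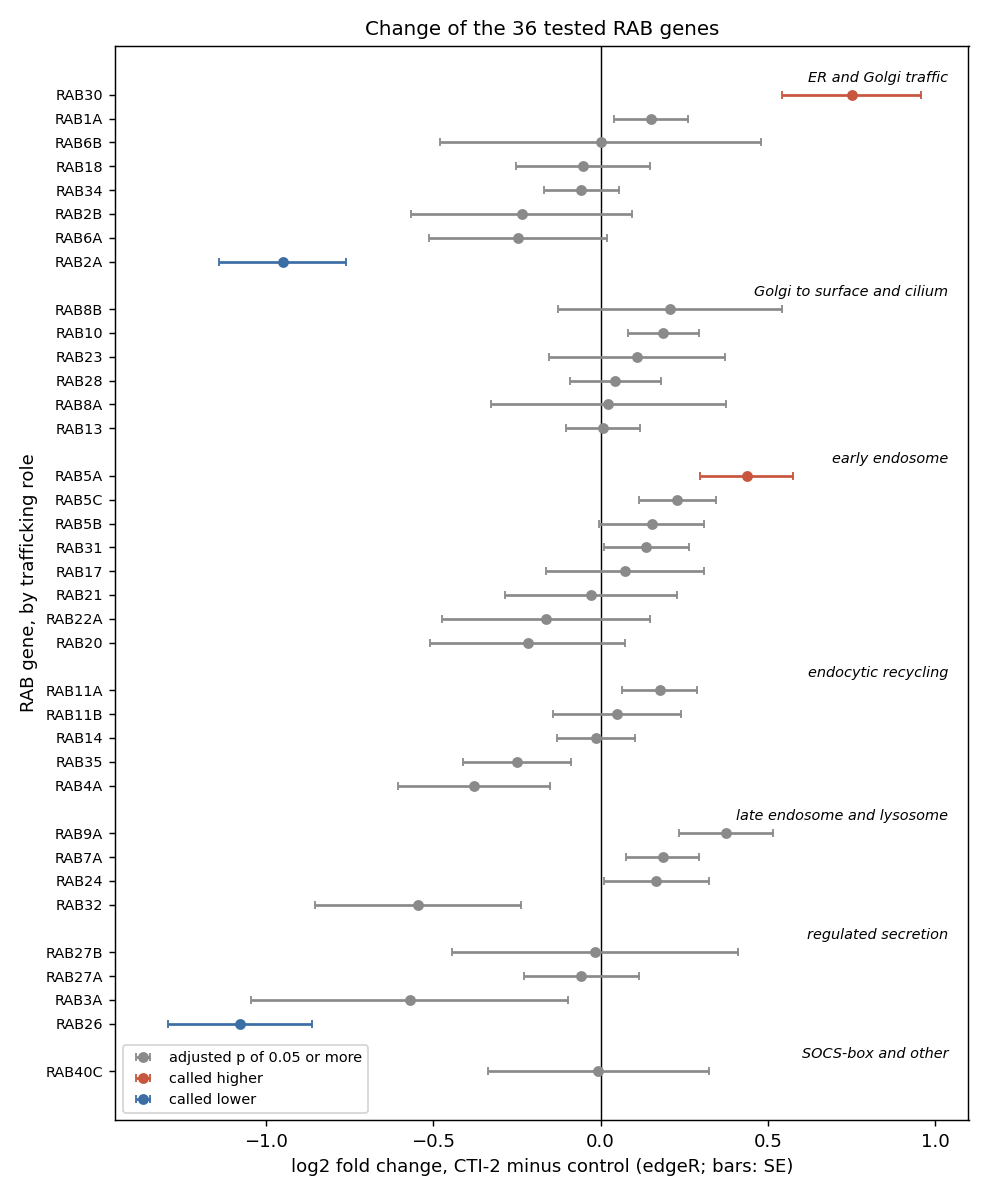
Log2 fold change (CTI-2 minus control, x axis) with its SE for each of the 36 tested RAB genes (y axis), grouped by trafficking role, from edgeR on 3 against 3 libraries. Called genes are coloured: RAB30 and RAB5A lie to the right, RAB2A and RAB26 to the left, and most others lie within 0.3 of zero.

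By level, the family was dominated by RAB13. It held 29.1% of all RAB counts, and the 10 members with the most counts held 79.0%. Divided by the length of the representative annotated transcript, RAB13 stood at 557 CPM per kb over the 6 libraries, ahead of RAB34 at 106, RAB7A at 72, RAB5C at 60.5 and RAB1A at 56.0 CPM per kb. By CPM alone the order was RAB13 (654.7), RAB34 (187.6), RAB10 (163.5), RAB7A (161.5) and RAB11A (145.0). Dividing by length thus kept RAB13 and RAB34 in front and changed the order after them. RAB30, with an annotated transcript of 9929 bases, came to 1.69 CPM per kb and RAB26, with 1675 bases, to 9.71 CPM per kb, although their CPM over the 6 libraries were 16.7 and 16.3. A read of a cDNA molecule does not gain counts with length as a fragment library does, so neither scale is exact here.

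**Figure D2:**
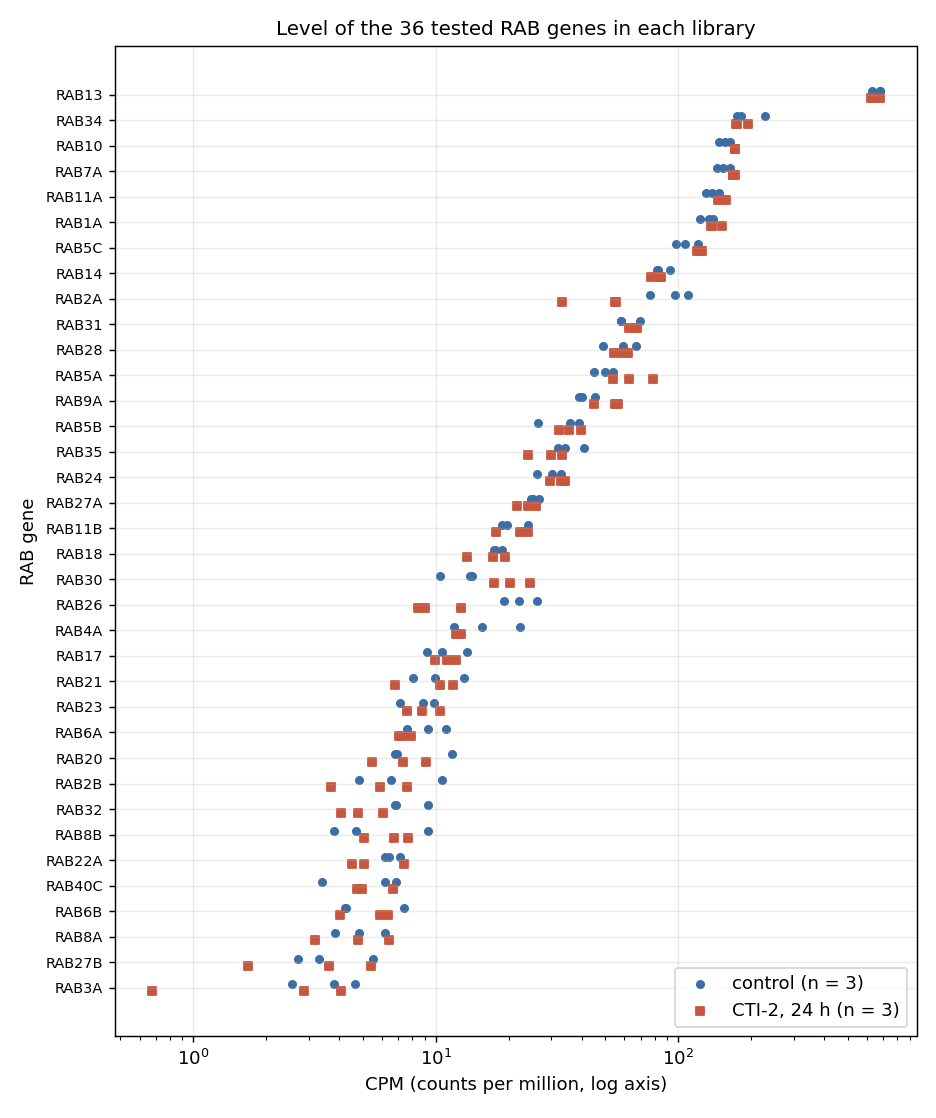
CPM (log axis) of the 36 tested RAB genes in each of the 3 control libraries (circles) and 3 CTI-2 libraries (squares), ordered by mean. RAB13 lies above 600 CPM in every library, RAB3A and RAB27B lie under 6 CPM, and the squares of RAB2A and RAB26 lie left of their circles.

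Among RABs of ER and Golgi traffic (15 members in the table, 8 tested), RAB2A fell and RAB30 rose. RAB2A binds membranes of the early secretory pathway and also takes part in fusion with lysosomes. Controls 1, 2 and 3 had 110.2, 97.0 and 76.2 CPM and the CTI-2 libraries 33.3, 55.6 and 54.8 CPM, or 286, 381 and 179 against 105, 165 and 121 counts. Every CTI-2 library lay below every control. The mean went from 94.4 ± 17.1 to 47.9 ± 12.7 CPM (SD, n = 3 each), a log2 fold change of -0.95 (SE 0.19, adjusted p = 0.0079, edgeR). Leaving out control 2 ended the call (adjusted p = 0.0662, log2 fold change -0.88), and it held without any other library. Its close relative RAB2B, at 7.34 ± 2.98 and 5.74 ± 1.96 CPM, did not pass.

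RAB30 is bound to the Golgi. It gave 36, 41 and 33 counts in the controls and 55, 60 and 54 in the CTI-2 libraries, which is 13.9, 10.4 and 14.04 against 17.4, 20.2 and 24.45 CPM. Again the groups did not overlap, here with CTI-2 higher. The mean of 12.8 ± 2.04 CPM became 20.7 ± 3.53 CPM, a log2 fold change of 0.75 (SE 0.21, adjusted p = 0.020, edgeR). The RAB30 gene lies at chr11:82973133-83071923 on the minus strand of GRCh38 and overlaps no other counted gene that has GENCODE coordinates. The adjusted p was above 0.05 without control 2 (0.0523) and when either CTI-2 library 2 (0.0506) or CTI-2 library 3 (0.124) was omitted, with library totals in place of TMM scaling (0.0546) and in DESeq2 (0.0782).

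The most abundant members of this role did not pass. RAB34, which works around the Golgi and in ciliogenesis, had 228, 175.3 and 181.7 CPM in controls and 193.4, 172.6 and 174.8 CPM after CTI-2, with control 1 highest and the rest overlapping (log2 fold change -0.06, SE 0.11). RAB1A, needed for transport from the ER to the Golgi, had 131.8 ± 8.43 and 142.1 ± 8.75 CPM (log2 fold change 0.15, SE 0.11, adjusted p = 0.43). RAB1B, its paralog with 75.0% identical aligned coding bases, was counted 0 to 2 times in a library. In the sequences above both genes end in a pair of cysteine codons, TGCTGC in RAB1A and TGTTGC in RAB1B, and the sources used here do not say how reads were divided between such paralogs. Summed over the role, the level was 531.5, 457.6 and 442.6 CPM in controls and 424.0, 417.3 and 443.8 CPM after CTI-2. Without RAB2A the sums were 421.4, 360.6 and 366.4 against 390.7, 361.6 and 389.0 CPM, so every CTI-2 value lay within the control range.

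**Figure D3:**
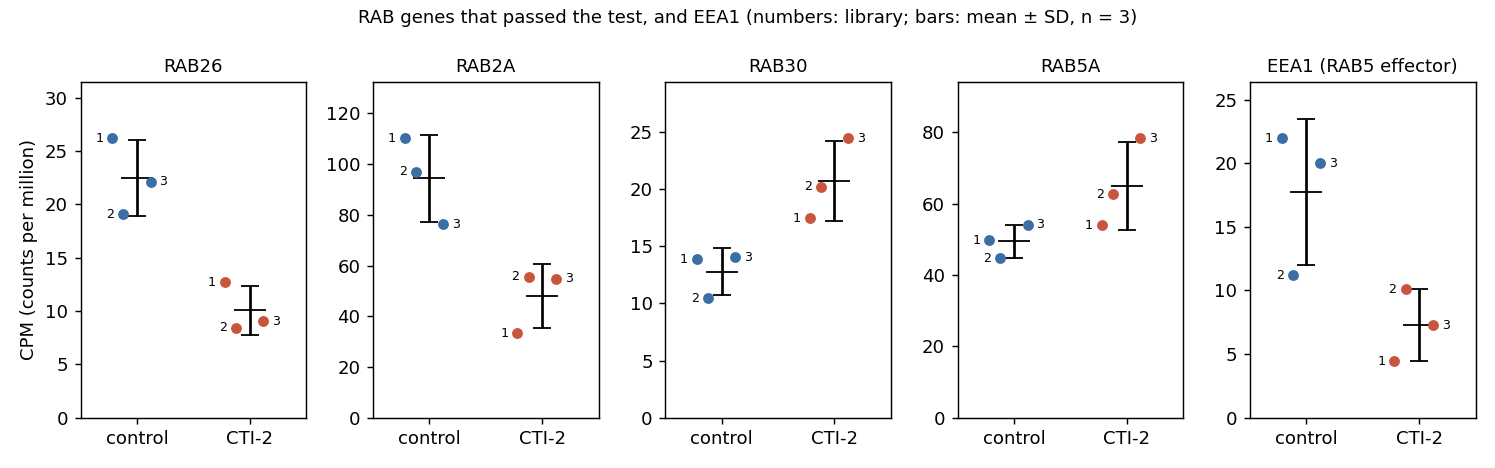
CPM of the 4 RAB genes that passed the test and of EEA1, an effector of RAB5, in control and CTI-2 libraries (points numbered by library; bars, mean ± SD, n = 3). RAB26, RAB2A and EEA1 are lower in every CTI-2 library than in any control, RAB30 is higher, and for RAB5A control 3 and CTI-2 library 1 are nearly level.

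The next role covers RABs that carry cargo from the Golgi to the cell surface or act at the cilium (7 in the table, 6 tested). It included the most abundant member of the family. In edgeR 0 of 6 passed, too few genes to set against the 8.03% of all genes, and 0 had an unadjusted p under 0.05 (23.9% of all genes did). Limma-voom called 0, and DESeq2 called 0 of the 4 to which it gave an adjusted p. RAB13, known for delivery of proteins to cell junctions, was counted 1763, 2672 and 1486 times in controls and 2135, 1856 and 1401 times after CTI-2. In CPM these were 679.1, 680.0 and 632.4 against 677.0, 625.5 and 634.4, an almost complete overlap. The log2 fold change was 0.01 with an SE of 0.11 (adjusted p = 0.98). The gene overlaps AL358472.6 on the same strand, a locus named here after its values were seen, which had 320, 334 and 176 counts in controls and 116, 117 and 93 after CTI-2 (log2 fold change -1.21, adjusted p = 7e-06), and the division of reads between the 2 genes was not tested.

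RAB10, which moves glucose transporter vesicles to the surface, lay at 164.1, 146.6 and 156.6 CPM in controls and 171.6, 171.2 and 170.7 CPM after CTI-2. The CTI-2 values were close together and above every control, yet the difference was small, with a log2 fold change of 0.19 (SE 0.11, adjusted p = 0.28). RAB28, found at the cilium, had 58.4 ± 9.07 and 58.4 ± 3.78 CPM (log2 fold change 0.04, SE 0.14). Among uncalled members the SE was smaller for the abundant genes. For the 10 members above 50 CPM that were not called, log2 fold changes ran from -0.06 to 0.23 with SE of 0.106 to 0.135. Choosing uncalled members itself limits these fold changes. RAB2A and RAB5A, called and also above 50 CPM, had SE of 0.19 and 0.14. For the 22 uncalled tested members at 50 CPM or less, log2 fold changes ran from -0.57 to 0.38 with SE up to 0.479, and changes like that of RAB5A could be missed there.

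The early endosome was the role with every listed member tested (8 of 8), and RAB5A rose. RAB5A governs fusion of early endosomes and entry of endocytosed cargo. Its counts were 129, 176 and 127 in controls and 170, 186 and 173 after CTI-2, or 49.7, 44.8 and 54.05 against 53.9, 62.7 and 78.3 CPM. Control 3 and CTI-2 library 1 overlapped by a narrow margin, and CTI-2 library 3 was the highest. The mean moved from 49.5 ± 4.63 to 65.0 ± 12.4 CPM, a log2 fold change of 0.44 (SE 0.14, adjusted p = 0.044, edgeR). This is the weakest of the 4 calls: it was lost in 5 of 6 fits that left out a library, with adjusted p up to 0.312 and a log2 fold change of 0.29 without CTI-2 library 3. It was also lost with library totals (0.112), a stricter count filter (0.0568), DESeq2 (0.109), limma-voom (0.0754), and removal of the trend with transcript length (0.0662) or GC content (0.0709).

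The RAB5 paralogs share the early endosome and much of their sequence. Over aligned coding bases RAB5A was 72.6% identical to RAB5B and 72.9% to RAB5C, and RAB5B was 77.2% identical to RAB5C. RAB5C had 120.6, 106.6 and 97.5 CPM in controls and 123.7, 119.6 and 125.4 CPM after CTI-2, with control 1 inside the CTI-2 range (log2 fold change 0.23, SE 0.11, adjusted p = 0.21). RAB5B, named after its values were seen, had 33.7 ± 6.47 and 35.9 ± 3.78 CPM (log2 fold change 0.15, SE 0.16). The 3 estimates are positive, and whether the paralogs differ in their change was not tested. RAB31, a relative of RAB22A that works on early endosomes and at the trans-Golgi, had 61.7 ± 6.57 and 65.6 ± 2.75 CPM and did not pass (log2 fold change 0.14, SE 0.13). The remaining members, RAB17, RAB20, RAB21 and RAB22A, lay at 5.67 to 11.1 CPM in either group.

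In endocytic recycling (7 in the table, 5 tested) 0 members passed in edgeR, too few genes to set against the 8.03% of all genes. Of the 5 tested, 0 had an unadjusted p under 0.05 (23.9% of all genes did), and DESeq2 and limma-voom called 0. RAB11A, the RAB of recycling endosomes, was at 129.8, 147.3 and 137.9 CPM in controls and 157.6, 152.0 and 145.4 CPM after CTI-2. Control 2 lay within the CTI-2 range (log2 fold change 0.18, SE 0.11, adjusted p = 0.35). RAB14, which links Golgi and endosomes, stood at 85.3 ± 5.86 and 81.6 ± 3.79 CPM (log2 fold change -0.01, SE 0.12), and overlaps GSN on the opposite strand, which was higher after CTI-2 (log2 fold change 0.53, adjusted p = 0.0062). RAB35, which acts in fast recycling and cytokinesis, had 32.0, 34.1 and 40.9 CPM against 24.1, 33.03 and 29.9 CPM, again overlapping (log2 fold change -0.25, SE 0.16, adjusted p = 0.36). RAB25, a relative of RAB11 known from epithelial cells, had 1 count in all 6 libraries together.

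Late endosome and lysosome members (7 in the table, 4 tested) included RAB9A, the uncalled member with the smallest p. RAB9A, which returns mannose 6-phosphate receptors from late endosomes to the Golgi, had 45.5, 38.9 and 40.0 CPM in controls and 54.9, 44.8 and 56.6 CPM after CTI-2. Control 1 was above CTI-2 library 2, and the log2 fold change of 0.38 (SE 0.14) had an unadjusted p of 0.011 and an adjusted p of 0.091. RAB7A, the main RAB of late endosomes and lysosomes, had 164.1, 152.9 and 144.3 CPM against 168.7, 167.5 and 171.6 CPM. It was higher in every CTI-2 library than in any control by a small margin (log2 fold change 0.19, SE 0.11, adjusted p = 0.30). RAB24, linked to autophagy, had 29.7 ± 3.29 and 32.05 ± 2.30 CPM. RAB32, which serves lysosome-related organelles, went the other way with 24, 27 and 16 counts against 15, 18 and 9, no overlap in CPM (9.24, 6.87 and 6.81 against 4.76, 6.07 and 4.08), and a log2 fold change of -0.55 that did not pass (SE 0.31, adjusted p = 0.28). In edgeR 0 of 4 passed, too few genes to set against the 8.03% of all genes. RAB9A alone had an unadjusted p under 0.05 (23.9% of all genes did). Limma-voom called 0, and DESeq2 called 0 of the 3 to which it gave an adjusted p.

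In regulated secretion (8 in the table, 4 tested) RAB26 fell. RAB26 is known from secretory granule maturation in exocrine cells and from vesicles directed to autophagy. It had 68, 75 and 52 counts in controls and 40, 25 and 20 after CTI-2, which is 26.2, 19.1 and 22.1 against 12.7, 8.43 and 9.06 CPM. Every CTI-2 library was below every control. The mean fell from 22.5 ± 3.57 to 10.1 ± 2.30 CPM, a log2 fold change of -1.08 (SE 0.22, adjusted p = 0.0015, edgeR). Of the 4 calls this was the 1 that held in every alternative run, with adjusted p from 7.56e-05 to 0.0146. The gene lies at chr16:2140803-2154165 on the plus strand of GRCh38, and no other counted gene with GENCODE coordinates overlaps it.

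The other secretory RABs did not pass. RAB27A, needed for docking of secretory lysosomes and release of exosomes, had 24.7, 26.7 and 25.1 CPM in controls and 26.0, 21.6 and 24.0 CPM after CTI-2, a log2 fold change of -0.06 (SE 0.17). RAB27B had 7, 13 and 13 counts against 17, 5 and 8, and its estimate of -0.02 carries an SE of 0.43. RAB3A had 2 to 15 counts in a library. Summed over the role, levels were 62.8, 53.7 and 56.2 CPM in controls and 47.6, 33.4 and 41.7 CPM after CTI-2. Without RAB26 they were 36.6, 34.6 and 34.1 against 34.9, 24.9 and 32.6 CPM, so that CTI-2 library 1 lay within the control range. In the remaining role, RABs with a SOCS box that recruit ubiquitin ligases and other members, RAB40C was tested and did not pass (5.48 ± 1.83 and 5.45 ± 1.05 CPM, SE of the log2 fold change 0.33).

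The 21 members below the count filter are given by their counts. RAB4B had 5 to 12 counts in a library, RAB29 2 to 10, RAB42 4 to 8, RAB33B 3 to 6, RAB3D 1 to 11 and RAB40A 1 to 6. RAB12 reached 5 counts, RAB40B and RAB33A 3, and RAB43, RAB1B and RAB36 2. RAB38, RAB41, RAB44, RAB6C, RAB3C, RAB25, RAB7B, RAB3B and RAB37 had at most 1 count in any library. In 14 members no library exceeded 3 counts, the limit that a count of 0 allows, so differences between the groups could not be seen at this depth. The genes known from neurons and endocrine cells, RAB3B and RAB3C, and the epithelial RAB25 belong to these.

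Some member counts may mix with those of neighbours. Of the 57 members 17 overlap another counted gene, 13 of them among the 36 tested, and none of RAB26, RAB2A, RAB30 and RAB5A does, among genes that have GENCODE coordinates. The sources used here do not say whether the counting used strand. Across the 36 tested members, which share the same 6 libraries, the log2 fold change correlated at r = 0.25 (Spearman's rho 0.14) with the log2 transcript length and at r = -0.28 (rho -0.21) with the GC content of the transcript. With the log2 mean CPM the values were r = 0.26 and rho 0.38. These relations across genes are given as descriptions, and the largest was the rho of 0.38 with the log2 mean CPM. Among the called members GC content was 62.7% for RAB26 and 38.8% for RAB2A, beside 36.9% for RAB30 and 42.0% for RAB5A. With the GC trend removed the RAB5A call was lost, as given above.

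Genes that load, activate, inactivate or read RAB proteins were drawn from lists of 194 genes, of which 144 were tested. In edgeR 6 of them (4.17%) were called, beside 8.03% of all genes in either direction. All 6 were lower after CTI-2 and 0 were higher, where 4.64% of all genes were called lower and 3.39% higher. The median log2 fold change over the 144 was -0.092. The called genes were spread over lists of membrane-loading factors, GEFs and effectors. Without control 2, ARL6IP5 (adjusted p = 0.00685) and RAN (0.00357) were called higher, and UNC13D was called lower in addition. YIPF4, a relative of YIPF1, was not called with all libraries in edgeR (109, 67 and 27 against 21, 22 and 19 counts, log2 fold change -1.58, adjusted p = 0.17) but was called lower in 5 alternatives, limma-voom among them.

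Core genes that lipidate RABs and extract them from membranes did not pass the test. GDI2, the widespread GDI, had 208.3 ± 10.4 and 190.8 ± 12.7 CPM (log2 fold change -0.07, SE 0.11). The transferase subunit genes RABGGTB (311.5 ± 14.9 and 263.8 ± 4.64 CPM, log2 fold change -0.19, adjusted p = 0.28) and RABGGTA (26.8 ± 4.79 and 24.9 ± 3.27 CPM) did not pass, nor did the escort protein gene CHM (5.01 ± 1.35 and 6.66 ± 0.505 CPM). In the list of these and related membrane proteins, 2 of 19 were called (10.5%, near the 8.03% of all genes). Both were lower, where 4.64% of all genes were called lower. Groups did not overlap for 9 of the 19 (47.4%, against 28.8% of all genes), with 3 higher and 6 lower after CTI-2, RABGGTB among the lower. In edgeR 6 of the 19 had an unadjusted p under 0.05 (23.9% of all genes did). No test was made of the list as a whole. PRAF2, of a family of small membrane proteins that bind prenylated RABs, went from 68, 58 and 24 counts to 13, 14 and 8 (log2 fold change -1.96, SE 0.31, adjusted p = 0.00022), and overlaps WDR45. YIPF1, a Golgi protein of a family that interacts with RABs, had 62.4, 86.0 and 126.8 CPM in controls and 44.4, 45.8 and 37.6 CPM after CTI-2 (adjusted p = 0.018, log2 fold change -1.04, SE 0.22). The YIPF1 call was lost without control 2 (0.0958) or CTI-2 library 1 (0.0633). ARL6IP5, a relative of PRAF2, had 254.8 ± 22.1 and 302.4 ± 10.7 CPM and did not pass with all libraries (log2 fold change 0.30, adjusted p = 0.089).

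Of the GEF genes 1 of 36 tested was called, and it was lower (2.78%, where 8.03% of all genes were called and 4.64% were called lower). CCZ1, a subunit of the complex that activates RAB7, had 42.8 ± 13.9 and 26.9 ± 2.52 CPM (log2 fold change -0.62, SE 0.18, adjusted p = 0.030). CCZ1 has a near-identical copy, CCZ1B, whose own estimate was -0.69 (adjusted p = 0.067, named after its values were seen), so their reads could be split. CCZ1B was called lower with no count filter, with a block for the replicate number, and without control 3 or CTI-2 library 2. The CCZ1 call was lost in DESeq2 (0.114), in limma-voom (0.0688) and in 4 of the 6 fits without a library, where control 1 moved it most (log2 fold change -0.38, adjusted p = 0.258). TRAPPC4 and TRAPPC2L, subunits of the complex that activates RAB1, had 124.1 ± 3.31 against 129.7 ± 4.61 CPM and 122.3 ± 2.22 against 129.3 ± 4.92 CPM. Of the GAP genes 0 of 29 passed in edgeR (8.03% of all genes did), and 1 had an unadjusted p under 0.05 (23.9% of all genes did). Limma-voom called 0, and DESeq2 called 0 of the 19 to which it gave an adjusted p. TBC1D7, part of the TSC complex, and TBC1D5, a RAB7 GAP, had log2 fold changes of 0.08 and 0.19 (SE 0.14 each).

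**Figure D4:**
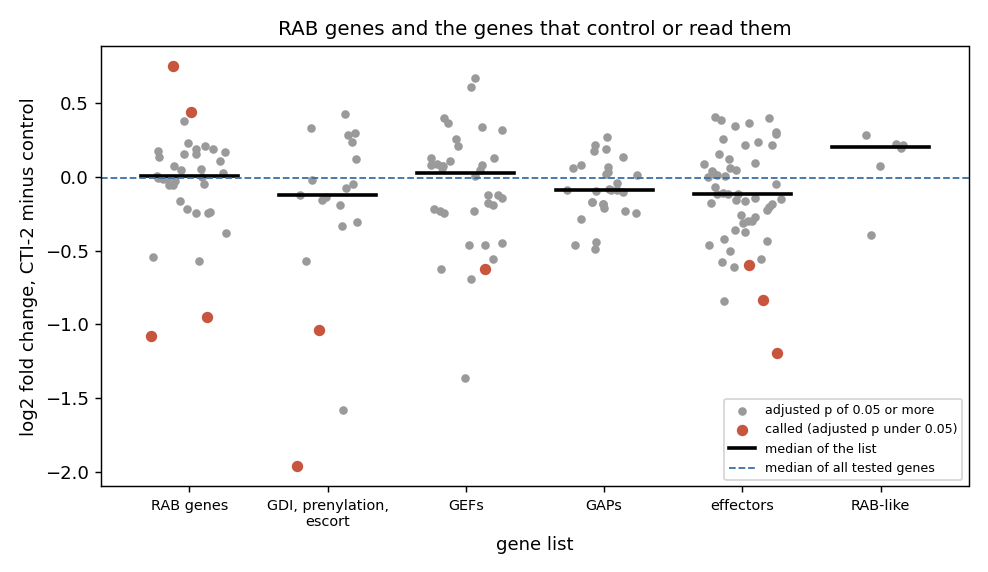
Log2 fold change (CTI-2 minus control, y axis) of tested RAB genes and of tested genes in 5 lists of RAB regulators, effectors and related GTPases (x axis); each point is a gene, black bars are list medians and the dashed line is the median of all tested genes. Called genes (large points) lie on both sides of zero among RAB genes and below zero in the GDI, GEF and effector lists. No GAP or RAB-like gene was called.

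Effectors, the proteins that read an active RAB, gave 3 calls among 54 tested genes (5.56%), beside 8.03% of all genes in either direction. All 3 were lower, where 4.64% of all genes were called lower, and both shares differ from the background by few genes. EEA1, the RAB5 effector that tethers early endosomes, had 21.96, 11.2 and 20 CPM in controls and 4.44, 10.1 and 7.25 CPM after CTI-2, or 57, 44 and 47 counts against 14, 30 and 16. The groups did not overlap, though control 2 was close to CTI-2 library 2. The log2 fold change was -1.19 (SE 0.28, adjusted p = 0.0066), a call that held in each alternative run with adjusted p from 0.000192 to 0.047. Its direction is opposite to that of RAB5A in the same libraries, and the relation between them was not tested. EHBP1L1, a partner of RAB8 and RAB10, had 14.8 ± 3.43 and 7.82 ± 0.955 CPM (log2 fold change -0.84, SE 0.24, adjusted p = 0.027). MICALL2, a partner of RAB13 at cell junctions, had 30.4 ± 7.38 and 18.95 ± 0.846 CPM (log2 fold change -0.60, SE 0.18, adjusted p = 0.036); RAB13 itself did not pass. The calls of EHBP1L1 and MICALL2 were each lost in DESeq2 (0.139 and 0.145), in 5 of the 6 fits without a library, and with the GC trend removed (0.0781 and 0.152). MICALL2 was also not called with library totals (0.0521), in limma-voom (0.0669) or after thinning (0.104).

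Among abundant effectors, KIF20A, a mitotic kinesin first found as a RAB6 partner, had 98.1 ± 5.20 and 101.3 ± 12.3 CPM. GOLGA2, a Golgi matrix protein bound by RAB1, had 95.6 ± 28.2 and 64.1 ± 19.9 CPM, groups that overlapped (log2 fold change -0.50, SE 0.31, adjusted p = 0.41), and was called lower with no count filter (0.0154). Of 6 tested relatives of the family 0 were called in edgeR, DESeq2 or limma-voom, too few genes to set against the 8.03% of all genes. In edgeR 1 had an unadjusted p under 0.05 (23.9% of all genes did). That was RABL6, lower after CTI-2 with a log2 fold change of -0.39 (adjusted p = 0.14). RABL6 had 81.3, 47.3 and 48.9 CPM in controls and 38.7, 44.15 and 47.1 CPM after CTI-2. RAN, the GTPase of nuclear transport, had 1324 ± 118.4 and 1489 ± 75.8 CPM (log2 fold change 0.21, adjusted p = 0.27). IFT22, a RAB-like subunit of intraflagellar transport, had 54.5 ± 1.87 and 60.8 ± 5.09 CPM.

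The 4 RAB calls differed in how firmly they held. RAB26 stayed below an adjusted p of 0.05 in every alternative, RAB2A in all but the fit without control 2, RAB30 was lost in 5 alternatives and RAB5A in 11. The signs of the 4 log2 fold changes were the same in every alternative run.

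**Figure D5:**
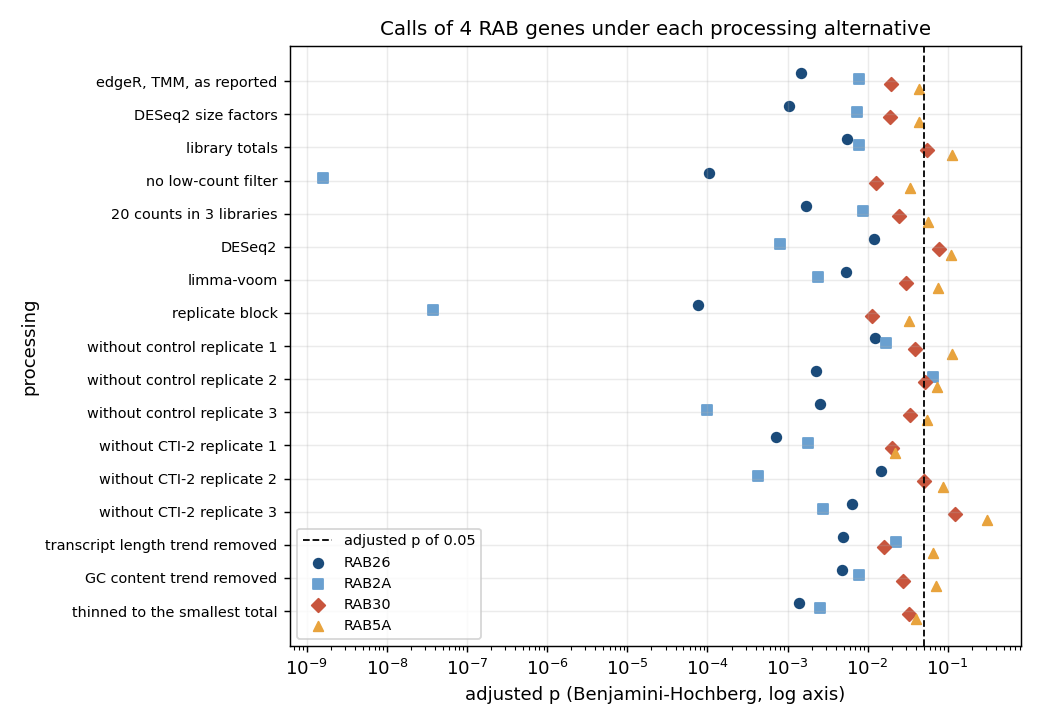
Adjusted p (log x axis) of the 4 called RAB genes under each processing choice (y axis), with a dashed line at 0.05. RAB26 lies left of the line throughout, RAB2A crosses it without control replicate 2, and RAB30 and RAB5A lie near it.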

How the data were processed

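Total RNA of 3 control and 3 CTI-2 samples was read as nanopore cDNA, per the labels' protocols. The authors deposited 2 tables, read counts as whole numbers for each gene, and CPM, which equals each count over its library total times 1000000, to within 1e-09. Reads were aligned with minimap2, per the submitters' processing notes, and the sources used here do not give the genome build, the read counter or the use of strand. Coordinates, transcripts and coding ends are from GENCODE 29 on GRCh38, and gene spans are printed where the deposited length matches.

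All genes were fitted together with edgeR 4.0.16 in R 4.3.3 (filterByExpr, TMM, robust quasi-likelihood, CTI-2 minus control), with Benjamini-Hochberg adjustment over 9848 genes and a threshold of 0.05. The SE comes from the fold change and test statistic. Values are mean ± SD over 3 libraries. Transcript length and GC content are those of the longest principal transcript, and 93.6% of the tested genes had them. Where no transcript was marked principal, as for RAB6A and RAB28, the longest of the basic GENCODE set was used. Simulated counts with known changes were used to check the fit. No pair of libraries of a group agreed within sampling noise, and no column of counts was left without a sample. Reads carry no molecular identifiers, so floors and shares cover counting error only.

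Members and lists were chosen with earlier results of these data known. The rule for named genes took every called member, the 5 uncalled with the smallest p, the top 3 of each role by CPM, 11 members and 5 regulators regardless of outcome, and from each list up to 4 called genes and the 2 of highest CPM; not every gene so taken is reported here. RAB2B, RAB5B, CCZ1B, YIPF4, UNC13D, RABL6, GSN, AL358472.6 and the remaining members given by range or sequence were added after their values were seen. Alternatives were DESeq2 size factors, library totals, no filter, limma-voom (limma 3.58.1), DESeq2 1.42.0, at least 20 counts in 3 libraries, each library left out in turn, a block for the replicate number, removal of the trend with transcript length (lowess, span 0.3) and thinning to the smallest total; removal of the trend with GC content was chosen after seeing the data.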

Additional observations from a re-analysis of the deposited data

How the results depend on the processing

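Of the 2 RAB genes called lower, 2 were called in every alternative except without control 2, so leaving out a library gave 1 to 2. Of the 2 called higher, leaving out a library gave 0 to 2, library totals and DESeq2 gave 0, and the filter of 20 counts in 3 libraries, limma-voom, removal of the length trend and removal of the GC trend (chosen after seeing the data) gave 1, which was RAB30; thinning, no filter and DESeq2 size factors gave 2. The cause was not tested. With the replicate block 2 higher and 2 lower RAB genes were called, the same genes, and 942 genes in all; same-numbered libraries did not deviate together (r = -0.049, 0.0069 and -0.124), so the numbers were not taken as pairs. Over all genes, 791 were called (334 higher, 457 lower), 498 with DESeq2 (264 and 234, of 7797 given an adjusted p), 1610 without control 2 (957 and 653) and 400 to 552 without any other library. Library totals moved the median of all genes from -0.011 to -0.059 and that of RAB genes from 0.0043 to -0.037. Depth limits the 21 untested members and those of few counts.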
